A study of Mus musculus with 24 samples.

Results

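Messenger RNA was compared between H2BE-knockout and wild-type neurons that had been exposed to brain-derived neurotrophic factor (BDNF) for 24 h. The comparison took the 4 knockout (KO) and the 4 wild-type (WT) libraries labelled with 24 h of BDNF, 8 of the 24 libraries of the series, and covered 16777 of the 45792 genes in the deposited count table, those with enough reads to test. The neurons were primary cortical neurons from E16.5 mouse embryos, kept in culture for 12 days. WT neurons carried an intact H2be gene, KO neurons carried a knockout of it with an mCherry knock-in, and both groups received BDNF. The other 16 libraries were neurons of the same 2 genotypes, untreated (control) or exposed to BDNF for 30 min, again 4 per group. The submitters described the 4 libraries of a group as biological replicates. The strain and sex of the embryos, and whether embryos were pooled for a culture, are not stated in these sources. The p-values below therefore refer to these cultures only. In the main test they rest on the spread between libraries within a group, pooled over all 24 libraries. That test treats libraries of the same culture in different groups as independent.

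The variant H2BE takes the place of canonical H2B in nucleosomes, the protein spools that package DNA, and it is known for its expression in neurons. BDNF is a secreted neurotrophin that binds the receptor tyrosine kinase TrkB, encoded by Ntrk2, and signals through the MAP kinase, phosphoinositide 3-kinase and phospholipase C pathways. Within minutes BDNF induces immediate-early transcription factors such as Fos, and over hours it changes the levels of transcripts for synaptic, secretory and metabolic proteins. The comparison addresses whether neurons without the variant differ in their transcripts under prolonged BDNF. A knockout difference at that time may also be present before the ligand, so the untreated libraries are given beside it.

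The 24 h libraries held 35342145 to 60433558 counts each, and 19900 to 21175 genes were detected in a library. Levels are given as CPM, the counts scaled to a common library size, with the library sizes adjusted by TMM factors, always in the order of replicates 1 to 4. The label of cortical neurons was checked against 17 neuron markers fixed for this purpose. Their summed level was 6981 to 7540 CPM in KO and 7554 to 7741 CPM in WT. Map2, a dendritic microtubule protein, stood at 2445 ± 134 CPM in KO and 2569 ± 102 CPM in WT (SD, n = 4 each). Of the 17 markers 5 were nonetheless lower in KO by the test used below, among them Tbr1, Bcl11b, Dcx and Neurod6, and 1 was higher, with a median log2 difference of -0.32. In untreated cultures 9 were lower and 0 higher.

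One library stood apart from its group before any gene was considered. Xist, the transcript of the inactive X chromosome, and the Y-linked Ddx3y were each high in only 1 of the pair in 7 of the 8 libraries. In KO replicate 4, however, Xist stood at 145 CPM and Ddx3y at 66.3 CPM. In KO replicates 1 to 3 Xist was 0.153, 541 and 1.44 CPM and Ddx3y was 79.8, 0 and 89.8 CPM. The untreated and 30 min libraries with the culture code of KO replicate 4 had Xist at 423 and 426 CPM. Their Ddx3y was at 0.193 and 0.904 CPM, so within that culture code only the 24 h library was high in both. When each library was left out in turn and placed by the genes called without it that differed by at least 1 on the log2 scale, with the WT mean at 0% and the KO mean at 100%, KO replicates 1 to 3 had median positions of 113%, 117% and 114%. KO replicate 4 lay at 32.7%, with quartiles of 14.5% and 54.8% over 843 genes. The 4 WT libraries lay at -10.8%, 2.8%, 17.7% and 24.1%. The KO mean used to place KO replicates 1 to 3 included KO replicate 4, and their gene sets were smaller (317, 312 and 329 genes). These positions are therefore not on 1 common scale. Each main result is therefore given with and without KO replicate 4. Why that library lies between the groups was not tested.

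**Figure D1:**
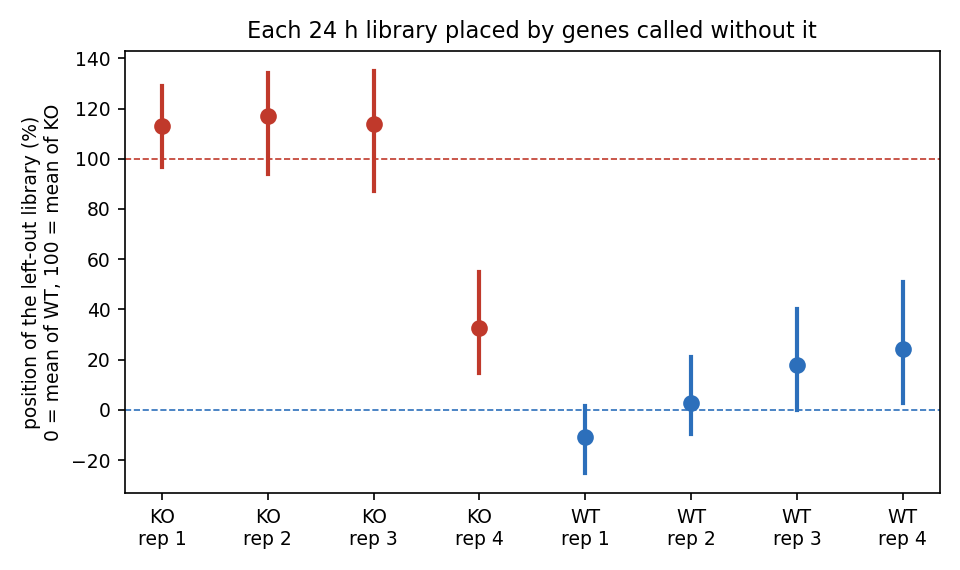
Position of each 24 h library, in percent of the distance from the mean of the WT libraries (0) to the mean of the KO libraries (100), over genes called without that library; points are medians over genes and bars run from the lower to the upper quartile. KO replicate 4, at 32.7%, is the only KO library with a median below 100%, and the KO mean used to place the other KO libraries includes it.

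The targeted gene was read first. Hist2h2be (ENSMUSG00000068854.7; mm10 chr3:96221119-96223738), the gene that encodes H2BE, had 50.0, 60.9, 53.6 and 21.2 CPM in the libraries labelled KO. In the libraries labelled WT it had 3.35, 3.37, 3.15 and 3.25 CPM. All 4 KO libraries thus lay above all 4 WT libraries, and KO replicate 4 was the lowest of its group. The untreated and 30 min libraries with its culture code had 54.5 and 53.7 CPM. On the log2 scale KO exceeded WT by 3.82 ± 0.21 (SE), with an adjusted p of 8.82e-11 in edgeR's quasi-likelihood test, and 4.06 without KO replicate 4. A gene-level count does not separate the deleted coding part from the remaining transcribed sequence of the gene, so it checks neither the loss of H2BE nor the insert. It separates the libraries by label.

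At 24 h of BDNF, 2223 of 16777 genes (13.3%) passed an adjusted p of 0.05 between the genotypes. Of these, 1189 (7.09% of the genes tested) were higher and 1034 (6.16%) were lower in KO. These shares are the background for each list count below, where rose and fell compare KO with WT at 24 h. Without KO replicate 4 the calls came to 3138 of 17049 genes (18.4%), 1546 higher (9.07%) and 1592 lower (9.34%), and 2144 genes were called with the same sign both ways, 96.4% of the first list and 68.3% of the second. Most differences were modest: the median absolute log2 fold change of the 2223 genes was 0.60, or 0.70 for the same genes without KO replicate 4. Only 299 genes were higher and 181 lower by at least 1 on the log2 scale, and 77 and 33 by at least 2. All 4 KO libraries lay beyond all 4 WT libraries for 1596 of the called genes. KO replicates 1 to 3 lay beyond WT for 2183 of them, and in 587 of those KO replicate 4 fell inside the WT range or beyond it. Calling selects for such separation, and the share over all genes tested was not counted, so these counts are no separate support. By gene type, 2133 of the called genes were among the 14415 protein-coding genes tested.

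**Figure D2:**
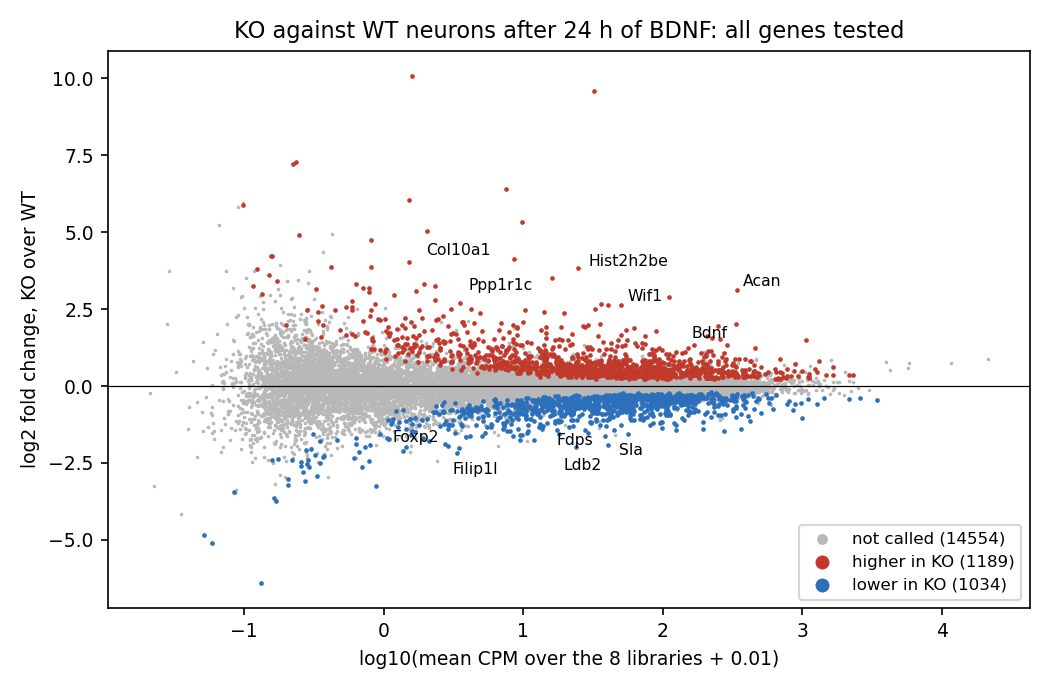
Log2 fold change between KO and WT at 24 h of BDNF (vertical axis, positive where KO is higher) against the mean level of each of the 16777 genes tested (horizontal axis, log10 of CPM + 0.01), with 1189 genes higher in KO in red, 1034 lower in blue and 14554 not called in grey. The largest labelled differences are those of Col10a1, Hist2h2be and Ppp1r1c on the higher side, and Filip1l, Foxp2 and Ldb2 on the lower side.

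The largest rises belonged to genes of very different functions. Col10a1, a collagen chain known from growth-plate cartilage, was at 18.4, 20, 21.1 and 5.25 CPM in KO and 0.637, 0.663, 1.38 and 1.01 CPM in WT. Its log2 fold change was 4.13 ± 0.42 (adjusted p = 3.24e-06, edgeR), and 4.41 without KO replicate 4. Ppp1r1c, an inhibitor of a protein phosphatase, had 36.7, 29.4, 33.3 and 18.2 CPM in KO against 1.75, 0.867, 2.7 and 4.85 CPM in WT, a log2 fold change of 3.52 ± 0.45. Acan (mm10 chr7:79053483-79115099) encodes aggrecan, the core proteoglycan of the perineuronal nets around inhibitory neurons. It reached 845, 814, 588 and 204 CPM in KO and 23.2, 65.3, 146 and 47.7 CPM in WT. No WT library reached the lowest KO value, and the log2 fold change was 3.12 ± 0.62 (adjusted p = 0.00192, edgeR). Without KO replicate 4 it was 3.40.

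Wif1, a secreted inhibitor of Wnt ligands, had 85.2, 101, 107 and 53.3 CPM in KO and 3.66, 16.3, 22.9 and 13.2 CPM in WT. The heparan sulfate-cleaving enzyme Hpse was at 5.03, 3.91, 5.63 and 2.19 CPM in KO against 0.212, 0.306, 0.476 and 0.747 CPM in WT. In both of these genes every KO library was above every WT library. Among the rest of the 12 largest rises were the tenomodulin gene Tnmd, the muscle actin-anchoring gene Nrap, the repressor gene Tbx2, the sarcoglycan gene Sgcz and Tmem255a, with log2 fold changes from 3.32 down to 2.67, and Hist2h2be itself.

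Among the 12 largest falls KO replicate 4 reached the WT range in 3 (Sla, Trhr and Foxp2) and lay below every WT library in the other 9. Ldb2 (mm10 chr5:44472132-44799680), a LIM-domain-binding cofactor of deep-layer projection neurons, had 3.77, 5.64, 5.15 and 23.8 CPM in KO and 51.4, 34.6, 34.8 and 31 CPM in WT. The groups did not overlap, and the log2 fold change was -1.97 ± 0.38 (adjusted p = 0.00166, edgeR), or -2.98 without KO replicate 4. Sla, an adaptor that dampens receptor signalling, was at 8.02, 10.5, 6.7 and 43.1 CPM in KO and 112, 54.3, 42.8 and 47.9 CPM in WT. Here KO replicate 4 was within the WT range, and the log2 fold change went from -1.90 with it to -2.94 without it. Trhr, the receptor of thyrotropin-releasing hormone, had 0.995, 1.85, 2.47 and 16.3 CPM in KO and 16.3, 19, 22.7 and 16 CPM in WT. Its log2 fold change was -1.76 (adjusted p = 0.0458, edgeR) with that library and -3.40 (1.41e-05) without it.

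Foxp2, a transcription factor of deep-layer neurons, had 0.153, 1.61, 0.517 and 3.08 CPM in KO and 6.37, 6.89, 2.53 and 6.54 CPM in WT. Its groups overlapped through KO replicate 4, and its log2 fold change was -2.03 ± 0.60 (adjusted p = 0.0266, edgeR). Filip1l, an actin-regulating filamin interactor, was at 0.536, 1.05, 0.632 and 2.6 CPM in KO and 6.45, 5.13, 5.18 and 5.2 CPM in WT. It showed the largest fall by the naming rule, -2.17 ± 0.36 on the log2 scale, while in untreated cultures it was -0.64 with an adjusted p of 0.237. The difference between the genotypes in the response from control to 24 h, -1.53, did not pass without regard to culture (adjusted p = 0.535, edgeR). Stra6, the cell-surface receptor for retinol-binding protein, had 1.47, 0.564, 1.03 and 1.68 CPM in KO and 4.14, 5.38, 4.73 and 4.02 CPM in WT. The other 6 were Fam19a4, Plekhd1, Synpo2, Kif26a, Mei4 and Samd9l, with log2 fold changes between -2.11 and -1.68.

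**Figure D3:**
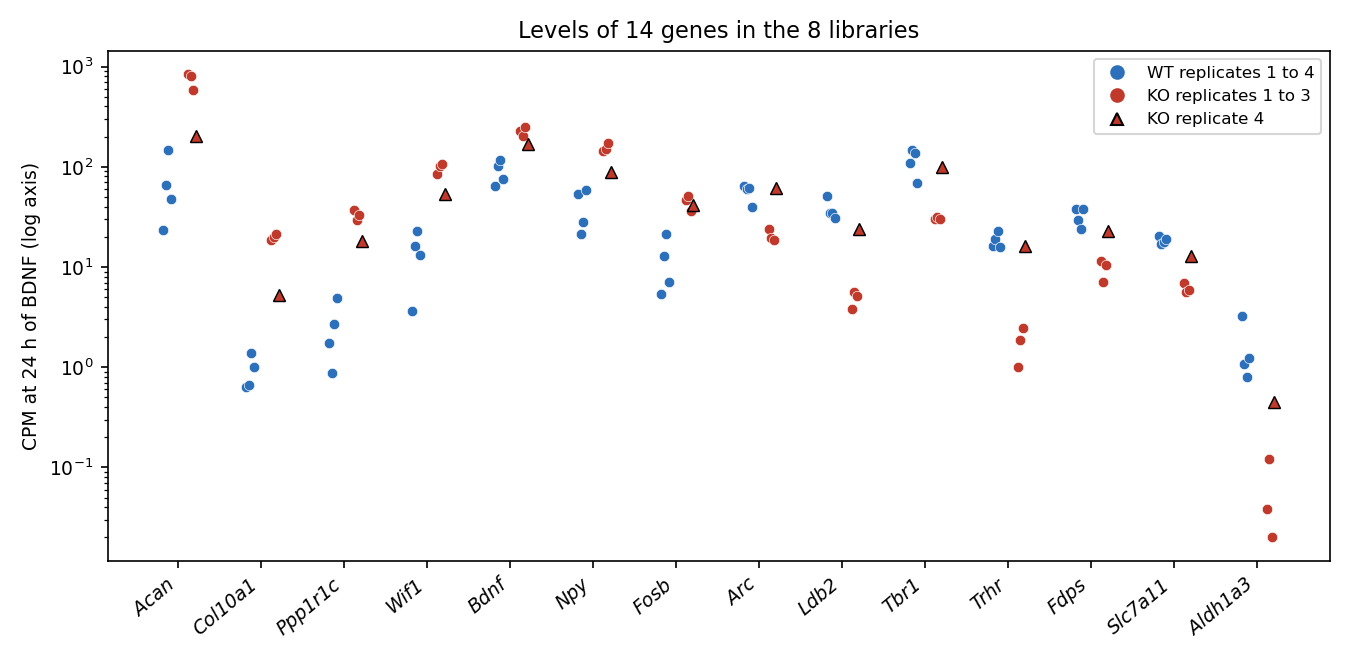
Level of 14 genes in each 24 h library (CPM, log axis; values under 0.02 CPM are drawn at 0.02), with WT in blue, KO replicates 1 to 3 as red circles and KO replicate 4 as red triangles. KO replicate 4 lies nearer to WT than the other KO libraries for genes such as Col10a1 (5.25 CPM), Ldb2 (23.8 CPM) and Trhr (16.3 CPM).

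Within the BDNF pathway the ligand gene and several target genes passed the test, and the gene of the receptor TrkB did not. Bdnf (mm10 chr2:109674700-109727007), the ligand gene and itself an activity-regulated gene, stood at 227, 203, 249 and 169 CPM in KO and 64.9, 102, 118 and 76.2 CPM in WT. Every KO library was above every WT library, and Bdnf rose by 1.23 ± 0.31 on the log2 scale (adjusted p = 0.00958, edgeR). It rose by 1.32 without KO replicate 4, and the genotype difference in untreated cultures was 2.01. The TrkB gene Ntrk2 had 521, 569, 512 and 419 CPM in KO and 396, 409, 446 and 434 CPM in WT. With KO replicate 4 inside the WT range, its log2 difference of 0.26 ± 0.14 did not pass (adjusted p = 0.251, and 0.132 without that library, edgeR).

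Of 37 receptor and transducer genes tested, 1 rose and 6 fell in KO, against 13.3% of all genes called in either direction, and the median log2 difference was 0.01 against 0.00 over all genes. Without WT replicate 1 or 2 or KO replicate 3 only 3 fell, and without KO replicate 4 there were 3 higher. The lower genes included Ngfr, the p75 neurotrophin receptor (-1.65, with overlapping groups), Pik3r1, a regulatory subunit of phosphoinositide 3-kinase (-0.62), the phospholipase gene Plcg1 (-0.35), the adaptor gene Shc2 (-0.32) and the CREB coactivator gene Crtc1 (-0.34). Among 23 genes of MAP kinase feedback, 2 rose and 2 fell, against 13.3% of all genes called, with a median of -0.07. Without WT replicate 2 or KO replicate 1, 2 or 3, 0 fell. In untreated cultures 9 of these genes were higher and 1 lower, with a median of 0.35. Spry1, an inhibitor of receptor tyrosine kinase signalling, was higher by 1.09 on the log2 scale, and the transcription factor gene Etv4 was lower by 1.02, a log2 fold change of -1.02.

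Of 43 rapid activity-regulated genes, 5 rose and 2 fell in KO, against 13.3% of all genes called, with a median log2 difference of 0.01. In untreated cultures 14 were higher and 1 lower, with a median of 0.30. Fosb, a Fos-family transcription factor, had 46.6, 51.2, 36.6 and 41.8 CPM in KO and 5.39, 13, 21.2 and 7.16 CPM in WT, a rise of 1.92 ± 0.30 on the log2 scale without overlap (adjusted p = 0.000368, edgeR). Npas4, a neuronal activity-specific transcription factor, was at 75.2, 74.1, 69.1 and 110 CPM in KO and 19.4, 33.2, 45.6 and 17.3 CPM in WT. It was higher in every KO library, by 1.51 on the log2 scale (adjusted p = 0.0318, edgeR). Its difference was 1.33 with an adjusted p of 0.0635 without KO replicate 4. Fos itself, at 149, 174, 146 and 161 CPM in KO against 54.5, 94.5, 114 and 59.7 CPM in WT, rose by 0.96 ± 0.30. In untreated cultures the log2 differences of Fosb, Npas4 and Fos were 2.30, 1.52 and 1.23.

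Not all immediate-early genes shared that direction. Arc, a postsynaptic regulator of receptor trafficking, had 23.8, 19.4, 18.5 and 61.5 CPM in KO and 63.6, 59.4, 62 and 39.7 CPM in WT. Egr1, a zinc-finger factor, had 65.3, 69.2, 49.4 and 187 CPM in KO and 209, 140, 148 and 141 CPM in WT. In both, KO replicates 1 to 3 were below all WT libraries and KO replicate 4 was not. Their log2 differences of -0.86 and -0.78 did not pass with all libraries (adjusted p = 0.0851 and 0.115, edgeR), while without KO replicate 4 they were -1.46 (0.000896) and -1.39 (0.000839). Without that library 5 rapid genes were higher and 10 lower. Leaving out any other library except WT replicate 3 gave 2 to 3 higher, and any except WT replicate 4 gave 1 lower.

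The late activity-regulated genes leaned higher. Of 44 tested, 10 rose and 3 fell, against 7.09% and 6.16% of all genes, with a median log2 difference of 0.27. Without KO replicate 4 there were 11 and 4. In untreated cultures more of them were called, 17 higher and 2 lower, with a median of 0.65. Rgs2, which limits G-protein signalling, had 567, 640, 546 and 409 CPM in KO and 92.2, 153, 169 and 115 CPM in WT, a log2 fold change of 2.03 ± 0.27 (adjusted p = 7.64e-05, edgeR). Npy, the neuropeptide Y gene, was at 145, 149, 173 and 87.8 CPM in KO and 52.9, 21.4, 27.8 and 59.2 CPM in WT, a log2 fold change of 1.78 ± 0.33. Neither gene's groups overlapped. Ptgs2, the inducible cyclooxygenase, was higher by 1.57, against 4.63 in untreated cultures. On the lower side were Homer1, a postsynaptic scaffold (-0.58), the Nogo receptor component Lingo1 (-0.44) and the actin regulator Baiap2 (-0.49). Without KO replicate 3 or WT replicate 1 only 5 or 6 late genes were higher.

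Genes of cholesterol synthesis were lower in KO as a group. Neurons make their own sterols in part, and the pathway runs from acetyl-CoA through mevalonate to squalene and lanosterol under the control of the transcription factor SREBP2. Of 27 genes tested, 20 fell and 0 rose, against 6.16% of all genes lower, and the median log2 difference was -0.70. Without KO replicate 4, 21 fell and the median was -0.85, and with any 1 library left out 15 (without KO replicate 2) to 21 fell. Summed over the list the level was 3226, 2561, 3180 and 4679 CPM in KO and 6295, 5745, 5179 and 6167 CPM in WT, so every KO library was below every WT library.

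The pathway begins with the steps that lead to mevalonate. Hmgcs1, which makes HMG-CoA, had 613, 490, 561 and 966 CPM in KO and 1489, 1268, 1213 and 1392 CPM in WT, a log2 fold change of -1.03 ± 0.19 (adjusted p = 0.00128, edgeR). Fdps (mm10 chr3:89093588-89101959), which makes farnesyl diphosphate, was at 11.6, 7.13, 10.4 and 23.1 CPM in KO and 38.3, 29.6, 23.9 and 38 CPM in WT. No KO library of either gene reached the lowest WT value, and Fdps fell by 1.31 ± 0.24 on the log2 scale, or by 1.75 without KO replicate 4. Mvd (-1.20), the squalene epoxidase Sqle (-0.76) and the lanosterol synthase Lss (-1.17) were lower too, as were the thiolase Acat2 (-1.09) and the sterol carrier Stard4 (-1.20). Srebf2, which encodes SREBP2, was lower by a log2 fold change of -0.53, and its retention factor Insig1 by -0.55. The 7 members that did not pass included Pmvk, Ebp, Srebf1, Scap and the sterol demethylase Msmo1 (-0.52, adjusted p = 0.0998, edgeR).

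The promoter of Hmgcs1 is shown because the gene is a textbook SREBP target that fell and holds the searched element. The letters TCACNCCAC, the core of a sterol regulatory element, were searched on both strands of the 250 bases before each start in the RefSeq promoter table (build GRCm38.p6). The stretch at chr13:119690184-119690252, on the plus strand and 5′ to 3′, carries the match in capitals.
Hmgcs1: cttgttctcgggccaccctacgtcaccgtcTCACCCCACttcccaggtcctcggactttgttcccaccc
Its first base lies 137 bases before the start. The letters occur in 1.05% of 32851 windows and in 1.22% of 27025 genes, and Hmgcs1 was the 1 gene with a match among the 19 of 27 list members found in the table. A match of letters describes the sequence and is no evidence of binding.

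Genes induced by amino acid shortage and unfolded proteins were also lower. This program is driven by the transcription factor ATF4 and covers amino acid import, serine synthesis and glutathione turnover. Of 24 members tested, 12 fell and 1 rose, with a median log2 difference of -0.40, and without KO replicate 4 it was 13 and 1. In untreated cultures the same list had 1 gene lower and 2 higher and a median of 0.02. The median difference between the genotypes in the 24 h response was -0.35. By the test of that difference without regard to culture 0 members passed, but with the culture as a block 4 of 24 had a lower response in KO and 0 a higher one (against 0.989% of all genes lower). Without KO replicate 4 at 24 h it was 9 (1.66% of all genes), and without any library of its culture 11 (2.76%). The 4 in the fit with all libraries were Slc7a11, Sesn2, Ddit3 and Xbp1. Of these, Ddit3 and Xbp1 were not among the 12 that fell at 24 h, so the lower responses and the falls are only partly the same genes. Without KO replicate 3, 7 members were lower, the fewest with any 1 library left out.

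Slc7a11 (mm10 chr3:49892526-50443614), the cystine importer that feeds glutathione synthesis, had 6.87, 5.6, 5.92 and 12.8 CPM in KO and 20.3, 16.8, 17.9 and 19.2 CPM in WT. It fell by 1.25 ± 0.21 on the log2 scale (adjusted p = 0.000709, edgeR), against a log2 difference of -0.21 (adjusted p = 0.545) in untreated cultures. From control to 24 h it changed by 2.08 in WT and 1.04 in KO on that scale, and the difference of -1.04 did not pass (adjusted p = 0.398, edgeR). With the culture as a block the difference was -1.13 (adjusted p = 0.0391, edgeR), and -1.37 (0.0029) without KO replicate 4. Chac1, which breaks down glutathione, had 39.1, 45.4, 32.3 and 41.4 CPM in KO and 73.6, 61.6, 59.1 and 64.3 CPM in WT. Its log2 fold change was -0.71 ± 0.14 against -0.06 in untreated cultures, and with the culture as a block the difference in response was -0.66 (adjusted p = 0.0579, edgeR), or -0.73 (0.0207) without KO replicate 4. In both genes every KO library was below every WT library. Also lower were Phgdh, the entry enzyme of serine synthesis (-0.83), Trib3, a pseudokinase that feeds back on ATF4 (-0.95), Ddit4, an inhibitor of mTOR signalling (-0.84), and Sesn2, a leucine sensor (-0.53). The mitochondrial folate enzymes Shmt2, Mthfd2 and Aldh1l2, the leucine importer Slc7a5, Cebpg and Herpud1 completed the 12, at log2 fold changes from -0.55 to -0.38. Nupr1, a stress-induced chromatin protein, was the 1 gene that rose, with 2.6, 3.95, 2.36 and 2.53 CPM in KO and 1.17, 0.714, 1.2 and 1.67 CPM in WT. The regulator Atf4 had 464, 554, 442 and 520 CPM in KO and 556, 527, 492 and 493 CPM in WT, overlapping groups with a log2 difference of -0.06 (adjusted p = 0.814, edgeR). Ddit3 (0.10) and Asns (-0.21) did not pass at 24 h either. With the culture as a block the response of Ddit3 was nonetheless lower in KO, by a difference of -0.66 (adjusted p = 0.00508, edgeR).

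The promoters of Slc7a11 and Chac1 are printed as examples. Both genes fell at 24 h, were not called in untreated cultures and hold the searched letters. The promoters were searched for TGATGNAA, the core of the amino acid response element bound by ATF4, on both strands, and matches are in capitals. The stretches, 5′ to 3′ on the strand of each gene, come from RefSeq on GRCm38.p6 at chr3:50443623-50443709 (minus strand) and chr2:119351019-119351086 (plus strand).
Slc7a11: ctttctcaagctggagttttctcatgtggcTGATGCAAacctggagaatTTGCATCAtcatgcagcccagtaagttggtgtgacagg
Chac1: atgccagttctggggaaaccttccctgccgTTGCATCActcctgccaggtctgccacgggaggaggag
Slc7a11 holds 2 matches, 1 on each strand, which begin 66 and 47 bases before its start, and Chac1 holds 1 on the opposite strand, 193 bases before. The letters occur in 3.45% of the 32851 windows and 3.91% of genes, and in 8 of the 23 list members found (Chac1, Asns, Slc7a11, Herpud1, Pck2, Nupr1, Fgf21 and Vldlr). Members with the letters include Nupr1, which rose, Asns, which did not pass, and Herpud1, which also fell and is not printed. Phgdh and Trib3, which also fell and were not called in untreated cultures, are not among the 8.

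Nuclear genes of oxidative phosphorylation were higher. Of 70 tested, 26 rose and 0 fell, against 7.09% of all genes higher, with a median log2 difference of 0.45. Without KO replicate 4, 24 rose, and without WT replicate 1 or KO replicate 3 the count was 13 or 15. The summed level was 13066 to 15093 CPM in KO and 9888 to 10720 CPM in WT. Atp5d, a subunit of the ATP synthase, had 267, 267, 257 and 210 CPM in KO and 136, 172, 181 and 168 CPM in WT, a log2 fold change of 0.61 ± 0.11 (adjusted p = 0.00103, edgeR). Cox8a, a subunit of cytochrome c oxidase, had 196, 193, 249 and 262 CPM in KO and 138, 140, 106 and 140 CPM in WT. Its log2 fold change of 0.78 ± 0.24 passed with all libraries (0.035), and without KO replicate 4 it was 0.69 (0.0642). Sdha, the flavoprotein of succinate dehydrogenase, rose by 0.43 on the log2 scale (adjusted p = 0.000265, edgeR).

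Transcripts encoded by the mitochondrial genome itself did not separate the genotypes. Their protein genes took 4.00%, 4.08%, 8.86% and 10.2% of the counts in KO and 3.92% to 4.46% in WT, so KO replicates 3 and 4 were high and KO replicates 1 and 2 lay within the WT range. The means of 6.79% ± 3.22 and 4.21% ± 0.239 (SD, n = 4 each) differed by 2.57 percentage points (two-sided exact permutation test over 70 assignments, p = 0.343, where the smallest possible is 0.0286). Of 12 such genes 0 passed in either direction, and of 55 cytosolic ribosomal protein genes also 0, with a median log2 difference of 0.05. A fit with the mitochondrial share as a covariate called 3730 genes in place of 2223.

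**Figure D4:**
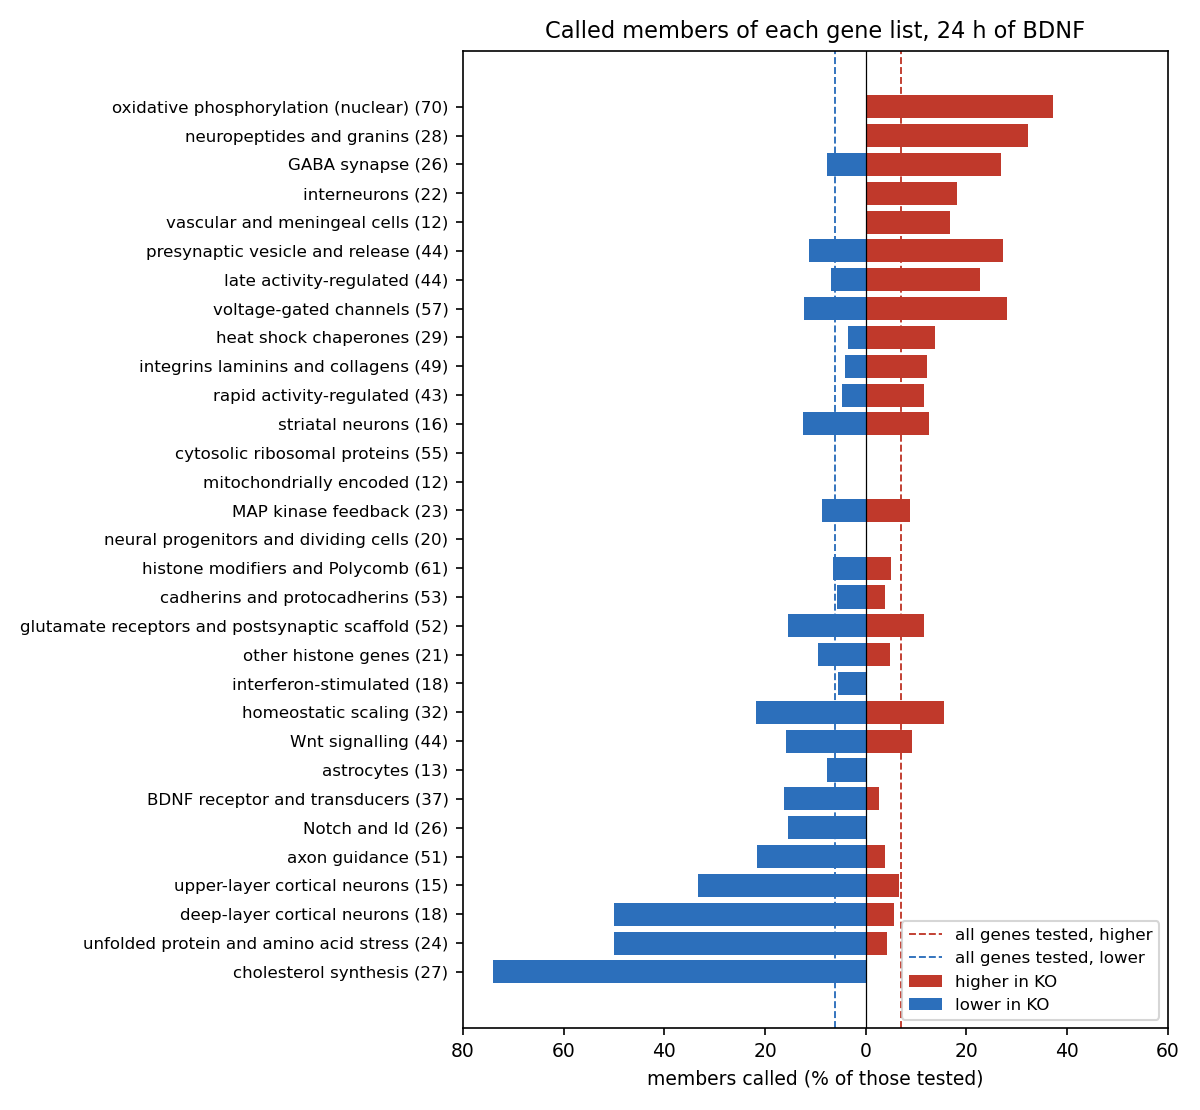
Share of the tested members of each gene list (number tested in brackets) that were called higher in KO (red, to the right) or lower in KO (blue, to the left) at 24 h of BDNF, with dashed lines at the shares over all genes tested, 7.09% and 6.16%. Cholesterol synthesis, with 20 of 27 members lower, is the longest bar.

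Markers of neuron types moved with genotype, which in bulk RNA leaves fewer cells of a type and less RNA per cell impossible to tell apart. Of 22 interneuron markers 4 rose and 0 fell, with a median log2 difference of 0.77, and 9 rose without KO replicate 4, 10 without WT replicate 4 and 1 without any other single library. Their summed level was 4490, 5348, 5141 and 2594 CPM in KO and 2037, 1796, 2597 and 4952 CPM in WT, so KO replicate 4 and WT replicate 4 each lay in the range of the other genotype. Gad1, the GABA-synthesising enzyme, followed it with 1114, 1555, 1222 and 657 CPM in KO and 514, 479, 664 and 1040 CPM in WT. Its log2 difference of 0.75 did not pass (adjusted p = 0.0729, edgeR) and was 0.94 (0.0178) without KO replicate 4. Lhx6, a factor of interneurons from the medial ganglionic eminence, had 98, 112, 114 and 59.4 CPM in KO and 47.8, 32.2, 48.5 and 84.3 CPM in WT, a log2 fold change of 0.85 (adjusted p = 0.0434, edgeR). Sst, the somatostatin gene, did not pass, at 0.03. The part of these markers in the differences of other genes, Acan and Npy included, was not tested.

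Deep-layer markers went the other way. Of 18 tested 9 fell and 1 rose, with a median of -0.77, and without KO replicate 4 it was 13 and 1, with -1.01. Without KO replicate 1, 6 fell. Their sum was 513, 571, 564 and 1019 CPM in KO and 1088, 1282, 1376 and 889 CPM in WT, again with KO replicate 4 and WT replicate 4 each inside the range of the other genotype. Tbr1, a transcription factor of corticothalamic neurons, had 29.8, 31.9, 29.8 and 100 CPM in KO and 108, 148, 137 and 68.2 CPM in WT. Its log2 fold change was -1.26 ± 0.30 (adjusted p = 0.00674, edgeR) and -1.92 without KO replicate 4. Tle4, a corepressor of the same neurons, had 36.8, 45, 37.1 and 150 CPM in KO and 166, 223, 232 and 110 CPM in WT, a log2 fold change of -1.44. Bcl11b, the subcerebral factor CTIP2, was at 54.8, 67.7, 59.7 and 90.1 CPM in KO and 108, 110, 120 and 122 CPM in WT, without overlap. Fezf2, a determinant of subcerebral neurons, did not pass (-0.79, adjusted p = 0.0793, edgeR).

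Of 15 upper-layer markers 5 fell (Rorb, Plxnd1, Lmo4, Rasgrf2 and Kitl) and Cux1 rose, with a median of -0.09, and 3 fell without KO replicate 3. Rorb, a layer IV nuclear receptor, had 6.41, 6.7, 4.71 and 20.2 CPM in KO and 31.9, 27.9, 26.6 and 15.8 CPM in WT. Dcx, a microtubule protein of young neurons, was at 191, 208, 204 and 456 CPM in KO and 659, 533, 573 and 554 CPM in WT, a log2 fold change of -1.13 (adjusted p = 0.00108, edgeR). Markers of cells other than neurons were read for the same libraries. Astrocyte markers summed to 258, 262, 327 and 566 CPM in KO and 618 to 698 CPM in WT. Of 13 tested 1 fell with all libraries, 4 without KO replicate 4 and 0 without KO replicate 1 or 2. The 1 was Slc1a2, a glutamate transporter at 188, 189, 212 and 433 CPM in KO and 496, 528, 492 and 395 CPM in WT. Gjb6, an astrocyte connexin, was at 0 in all 8 libraries. Oligodendrocyte markers summed to 46.3 to 68.8 CPM in KO and 69.9 to 97.5 CPM in WT, with Mbp and Mog lower. Microglia markers summed to 9.9 to 13.4 CPM in KO and 7.88 to 11.1 CPM in WT, and the defining Tmem119, P2ry12 and Itgam had too few reads to test. The complement gene C1qc was called there on 114 counts in KO and 10 in WT, a CPM ratio of 9.48 (95% interval 4.97 to 20.3, counting error only). Its adjusted p was 0.047 with all libraries and 0.076 without KO replicate 4 (edgeR), and the call was also lost with any other single library left out. Markers of dividing progenitors summed to 197 to 206 CPM in KO and 170 to 217 CPM in WT, and 0 of 20 passed.

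Transcripts of the release machinery and of ion channels were called in both directions, more often higher. Of 44 presynaptic genes 12 rose and 5 fell, with a median of 0.09. Cplx1, a complexin that clamps vesicle fusion, had 1015, 1010, 958 and 597 CPM in KO and 397, 467, 547 and 531 CPM in WT, a log2 fold change of 0.88 ± 0.15 (adjusted p = 0.000535, edgeR). Vamp1, a vesicle SNARE of fast-spiking neurons, had 30.2, 31.3, 34.7 and 15.4 CPM in KO and 12, 9.69, 13.1 and 13.4 CPM in WT. Every KO library of both genes was above WT. Rph3a (1.15), Rab3c (0.83) and the calcium sensor Syt1 (0.54) were higher too, and Syn3 (-0.73) and Doc2b (-0.61) lower. Without KO replicate 1 or 3 or WT replicate 1, 6 to 7 presynaptic genes were higher, and 2 to 3 were lower without WT replicate 1 or 2 or KO replicate 1, 2 or 3.

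The voltage-gated channels numbered 57, with 16 higher and 7 lower in KO, the latter 2 to 4 without WT replicate 1 or KO replicate 1, 2 or 3. Scn1a, the sodium channel known from fast-spiking interneurons, had 142, 149, 139 and 70.2 CPM in KO and 49.4, 52.7, 56.5 and 62.8 CPM in WT, a log2 fold change of 1.18 ± 0.18 (adjusted p = 0.000227, edgeR). The sodium channel beta subunit Scn2b (0.71) and the potassium channels Kcns2 (1.28), Kcnh7 (1.04), Kcnn2 (0.94) and Kcna2 (0.78) were higher. Among the lower ones were Scn3a, the sodium channel of immature neurons (-0.58), the calcium channel Cacna1e (-0.65) and the potassium channels Kcng1 (-0.81) and Kcnc4 (-0.64). Neuropeptide and granin genes were called in 1 direction, with 9 of 28 higher and 0 lower and a median of 0.45 (6 higher without WT replicate 1). Cck, the cholecystokinin gene, had 46.9, 72, 56 and 71.3 CPM in KO and 27.9, 24.1, 12.3 and 28.1 CPM in WT, a log2 fold change of 1.41. Pnoc (1.34), Pthlh (1.30), and the granins Chgb (0.89), Scg3 (0.83) and Chga (0.52), which load dense-core vesicles, were higher as well.

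Receptor genes split by subunit. Of 52 glutamate receptor and scaffold genes 6 rose and 8 fell, against 7.09% and 6.16% of all genes, with a median of -0.03. The higher count was 1 to 3 without WT replicate 1 or 2 or KO replicate 1 or 3, and the lower count was 4 to 5 without any 1 of WT replicates 1, 3 and 4 or KO replicates 1 to 3. The AMPA receptor subunits Gria1 (0.83) and Gria4 (0.75) were higher while Gria2 (-0.39), which sets calcium permeability, and Gria3 (-0.54) were lower. The NMDA receptor core subunit Grin1 (0.63) and the kainate receptor subunits Grik1 (1.30) and Grik2 (0.74) were higher. Grik3, another kainate subunit, had 72.6, 86.6, 74.6 and 194 CPM in KO and 320, 306, 273 and 223 CPM in WT, a log2 fold change of -1.39. Of 26 GABA synapse genes 7 rose and 2 fell, against 7.09% and 6.16% of all genes, with a median of 0.25. Only 2 to 4 rose without any 1 of WT replicates 1 to 3 or KO replicates 1 to 3. Without KO replicate 1 or 2, 0 fell. Gabrd, the subunit of extrasynaptic GABA-A receptors, was at 13.7 ± 2.38 CPM in KO (SD, n = 4), with 10.7 CPM in the lowest library, and at 4.62, 4.57, 4.36 and 7.95 CPM in WT, a log2 fold change of 1.35 (adjusted p = 3.98e-05, edgeR). The vesicular GABA transporter Slc32a1 (1.12) and the GABA transaminase Abat (0.87) were higher, and Gabra3 (-0.40) and Gabra5 (-0.51) lower.

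Homeostatic scaling, in which neurons adjust synaptic strength to prolonged changes of activity, was covered by a list of 32 tested genes, of which 5 rose and 7 fell, with a median of -0.05, and 1 to 3 rose without any 1 of WT replicates 1 to 3 or KO replicates 1 to 3. Retinoic acid is one of its signals. Its synthesising enzymes went opposite ways: Aldh1a3 had 0.0383, 0.121, 0 and 0.445 CPM in KO and 3.27, 1.07, 0.801 and 1.23 CPM in WT, and Aldh1a1 had 1.4, 1.95, 2.24 and 1.2 CPM in KO and 0.558, 0.306, 0.551 and 0.615 CPM in WT. Neither gene's groups overlapped, and both levels were low. The retinoic acid receptor gene Rara was higher by 0.72 on the log2 scale.

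Genes of axon guidance were more often lower. Of 51 tested 11 fell and 2 rose, with a median of -0.19, and 7 fell without KO replicate 1, 2 or 3. Lower were the secreted cues Sema3f (-1.39) and Ntn1 (-1.28), the semaphorin Sema4a (-0.99), and the receptors Ephb1 (-0.98), Nrp2 (-0.89) and Robo1 (-0.76). The netrin receptor Unc5c (1.04) and the netrin-related Ntng2 (0.52) were higher. Of 53 cadherins and protocadherins 2 rose and 3 fell, a lower share than the 13.3% of all genes. There were 6 higher and 2 lower of 49 integrins, laminins and collagens (2 to 3 higher without WT replicate 1, 2 or 4 or KO replicate 1, 2 or 3, and 0 lower without WT replicate 3 or KO replicate 1, 2 or 3), among them Col1a2 (1.52), Col3a1 (1.48), Fn1 (1.28) and Itga6 (-1.12). In the Wnt list 4 of 44 rose and 7 fell, against 7.09% and 6.16% of all genes. The secreted modulators Sfrp2 (2.05) and Dkk2 (1.66) were on the higher side and Apcdd1 (-1.59) and Wnt9a (-1.41) on the lower. In the Notch and Id list 4 of 26 fell and 0 rose, against the same shares. Only 1 to 2 fell without WT replicate 1 or KO replicate 1, 2 or 3. Among the 4 were the effectors Hes1 (-1.23), Hey1 (-0.47) and Hes6 (-0.39).

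Histones and their modifiers were read as the genes closest to the deleted variant. Of the 4 H2B genes with enough reads to test, Hist2h2be and Hist1h2bc rose. Hist1h2bc, which encodes a canonical H2B, had 16.7, 18.6, 21.7 and 20.6 CPM in KO and 6.37, 9.39, 14.9 and 8.45 CPM in WT, a log2 fold change of 0.99 ± 0.27 (adjusted p = 0.0172, edgeR). Hist1h2be (0.42, adjusted p = 0.547) and Hist3h2ba (0.04, 0.924) did not pass. Histone genes are near-identical copies, many without a poly(A) tail, and the sources used here do not give how the authors assigned shared reads, so these levels are uncertain. Among 21 other histone genes, the linker histone Hist1h1c rose (0.76) and H2afy2, a macroH2A gene (-0.57), and the linker histone H1f0 (-0.34) fell. Of 61 histone modifiers and Polycomb genes 3 rose (Dot1l 0.80, Hdac5 0.54, Jarid2 0.40) and 4 fell (Rnf2 -0.75, Kdm4a -0.56, Kat6b -0.42, Dnmt1 -0.41), a share near the background of 13.3%. When KO replicate 4 was left out it was 5 and 10, against 18.4% of all genes called in that fit, and the count was 1 to 2 lower when WT replicate 1, 2 or 3 or KO replicate 1, 2 or 3 was left out. Of 18 interferon-stimulated genes only Stat2 was called, a signal transducer that fell by 1.12 on the log2 scale.

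The calls were spread over the genome. On the autosomes and the X chromosome 12.0% to 14.8% of the genes tested were called, with 13.4% on chromosome 3, which holds Hist2h2be. Within 5 Mb of Hist2h2be, 11 of 127 genes (8.66%) were called, 5 higher and 6 lower, and within 1 Mb 6 of 65 (9.23%). The largest of these was Crct1 (3.88), a gene of the epidermal cluster with very few reads, followed by Phgdh. The genes that were lower in KO had a median span from start to end of 42.8 kb, against 22.8 kb for those that were higher and 21.5 kb for all tested. Their median exonic length was 5.58 kb, against 4.22 and 4.11 kb. Called genes also had more reads, with median levels of 41.4 and 35.9 CPM for lower and higher genes against 13.9 CPM for all, and the part of length and level in the calls was not tested.

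Much of the genotype difference at 24 h was also seen in the untreated cultures, from which the 24 h libraries share the culture codes but no library. There 3592 genes (21.4%) were called, 1903 higher (11.3%) and 1689 lower (10.1%). Of the 2223 genes called at 24 h, 1633 were called in untreated cultures with the same sign, which is 73.5% of the 24 h list and 45.5% of the untreated list. The genes Aff1, Stard10, Slc9a9 and Cdk19 were called with opposite signs. A further 586 genes were called at 24 h and not in untreated cultures, 229 of them also at 30 min. Of the 586, 538 had the same sign in untreated cultures, and 0 passed the test of the difference without regard to culture, or 37 with the culture as a block (97 without KO replicate 4 at 24 h). At 30 min of BDNF 4760 genes (28.4%) were called, 2452 higher (14.6%) and 2308 lower (13.8%), and 1561 genes were called with 1 sign in all 3 conditions. Cholesterol synthesis had 23 members lower before BDNF, with a median of -1.02, and the deep-layer markers 14, with -1.26. Oxidative phosphorylation had 52 of 70 members higher before BDNF, with a median of 0.61. In untreated KO replicate 4, protein genes of the mitochondrial genome took 17.3% of the counts, against 5.53%, 4.89% and 8.88% in untreated KO replicates 1 to 3. Cox8a had 248, 208, 237 and 534 CPM in untreated KO, while Atp5d had 289, 251, 258 and 253 CPM. The untreated counts were not repeated with a library left out.

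**Figure D5:**
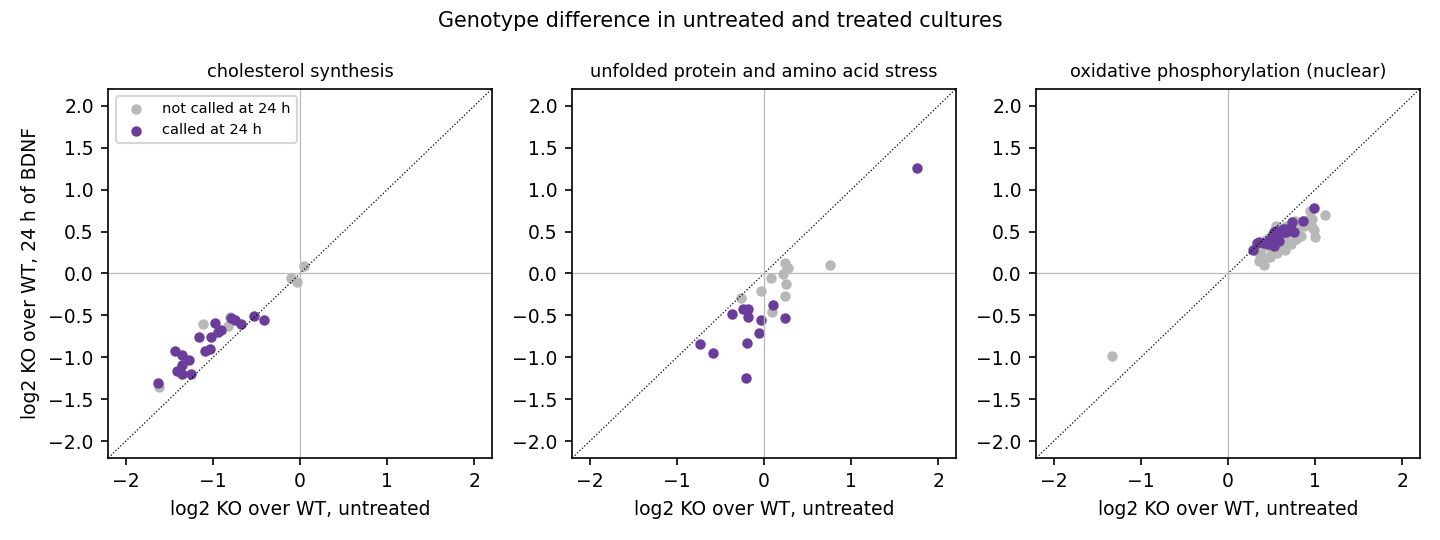
Genotype difference (log2, positive where KO is higher) for the members of 3 gene lists in untreated cultures (horizontal axes) and at 24 h of BDNF (vertical axes), with genes called at 24 h in purple and the diagonal dotted. Cholesterol synthesis genes lie mostly below 0 on both axes with medians of -1.02 and -0.70, with 1 member above 0 at 24 h (0.09). Stress genes are spread around 0 in untreated cultures (median 0.02) and mostly below 0 at 24 h (median -0.40). Oxidative phosphorylation genes lie mostly above 0 on both, with 1 member below 0 at 24 h (-0.98).

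Whether the genotypes responded differently over 24 h was tested as the difference of their responses, and 6 of 16777 genes (0.0358%) passed, 4 with a higher (0.0238%) and 2 with a lower response in KO (0.0119%), and 940 had an unadjusted p under 0.05. All 6 were called between the genotypes before BDNF, and in all 6 the genotype difference was smaller at 24 h. Vcan, the proteoglycan versican, was at 137 ± 18.7 CPM in untreated WT and 36.2 ± 10.6 CPM in untreated KO (SD, n = 4 each), and at 24 h it was at 27.7 ± 2.69 and 22.0 ± 6.94 CPM. It fell by 2.31 in WT and by 0.72 in KO on the log2 scale, a difference of 1.59 (adjusted p = 0.0348, edgeR). Atf3, a stress- and injury-induced transcription factor, went from 4.45 ± 1.51 to 32.3 ± 6.42 CPM in WT and from 11 ± 1.8 to 23 ± 5.82 CPM in KO, a difference of -1.79 (adjusted p = 0.0297). Tox3, a nuclear calcium-dependent factor, went from 17.5 ± 2.79 to 9.89 ± 1.12 CPM in WT and from 6.6 ± 1.36 to 10.2 ± 1.49 CPM in KO, so its responses had opposite signs (difference 1.45, adjusted p = 0.0201).

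The others were Adgrb3, an adhesion receptor at synapses, B3gat1, which makes the HNK-1 carbohydrate, and Mylk, the myosin light chain kinase. Adgrb3 went from 112 ± 7.97 to 87.3 ± 7.32 CPM in WT and from 50.3 ± 2.14 to 65.6 ± 5.85 CPM in KO, again with opposite signs. B3gat1 went from 413 ± 29.4 to 219 ± 7.66 CPM in WT and from 217 ± 9.41 to 188 ± 16 CPM in KO. Mylk went from 4.15 ± 1.17 to 9.12 ± 1.57 CPM in WT and from 26.7 ± 2.24 to 19.8 ± 2.02 CPM in KO, and it and Adgrb3 were still called between the genotypes at 24 h. B3gat1 (adjusted p = 0.0331, edgeR) and Atf3 (0.0483) were called at 24 h too when KO replicate 4 was left out. Libraries of 1 culture share a code within each genotype, and with the culture as a block 299 genes (1.78%) passed (133 higher and 166 lower), or 487 (2.86%) without KO replicate 4 at 24 h and 835 (4.94%) without any library of its culture. Among the rapid activity-regulated genes 3, 10 and 12 of 43 had a lower response in KO in these 3 fits and 0 a higher one. Among the 44 late genes it was 5, 6 and 13, again with 0 higher. Of the 23 MAP kinase feedback genes 7, 9 and 11 had a lower response and 1 a higher one in each fit. Their median differences were -0.49, -0.56 and -0.63. Over all genes the shares lower were 0.989%, 1.66% and 2.76%. The count of 6 from the test without regard to culture depended on single libraries. It was 0 without WT 24 h replicate 2, WT 24 h replicate 3 or KO control replicate 1. It was 2 without KO 24 h replicate 2, KO 24 h replicate 3 or WT control replicate 2, and 11 without KO 24 h replicate 4. The fit with the culture as a block was repeated only without KO replicate 4 at 24 h or its culture.

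Single libraries moved the count of 2223 genes at 24 h. It was 1278 without WT replicate 1 and 1243, 1267 and 1216 without KO replicate 1, 2 or 3. Within the naming set that holds WT replicates 3 and 4 and KO replicates 2 to 4, which has 5 of the 8 libraries, 11 genes were called (283 without KO replicate 4), and with the set as a covariate over all libraries 2239 were.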

How the data were processed

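Polyadenylated RNA from primary cortical neurons was isolated with a column kit and made into libraries with a stranded mRNA kit, per the labels' protocols. The authors deposited raw whole-number counts per gene, 1 column per library, and those counts were used as they stand. STAR 2.7.9a, the mm10 build, DESeq2 1.38.3, limma 3.54.2 and edgeR 3.40.2 are named per the submitters' processing notes. The sources used here do not give the counting program, its strand setting or the annotation, so overlapping, antisense and near-identical genes are uncertain. Symbols from GENCODE M21 matched 45229 of 45792 identifiers (98.8%), and unnamed genes held 0.066% of the counts.

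The test was that of edgeR 4.0.16 (R 4.3.3): filterByExpr (minimum count 10, minimum total 15), TMM factors (0.968 to 1.07 at 24 h) and 1 quasi-likelihood model over all 24 libraries with a mean per group, 18 residual degrees of freedom and 23.5% biological coefficient of variation. Called means a Benjamini-Hochberg adjusted p under 0.05 over all genes tested. SE is the log2 fold change over the square root of F. Depth was 35342145 to 60433558 counts per 24 h library. On simulated data at these depths the model recovered 28.4%, 70.1% and 69.7% of genes changed 1.5-, 2- and 4-fold between KO and WT at 24 h, with 3 false calls among 16356 unchanged genes of 16555. The simulated libraries were independent, with no culture shared between libraries and no library between the groups. Only 67, 67 and 66 genes were changed, so these rates may not hold for the real data.

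The comparison, 36 gene lists and the rule for named genes were chosen with earlier results of these data known. Named were the 12 largest rises and 12 largest falls called with and without KO 24 h replicate 4 (mean of at least 1 CPM, KO replicates 1 to 3 beyond all WT libraries, no predicted genes or pseudogenes), the 4 called members of each list that changed most, up to 4 genes of each sign for the difference in response, up to 6 called genes within 5 Mb of Hist2h2be, and Hist2h2be, Bdnf and Ntrk2. Other members named beside them were chosen after their values were seen. Alternatives were DESeq2 1.42.0, limma 3.58.1 with the culture as a random effect, RLE factors, other filters, only the groups compared, a replicate block, naming sets and mitochondrial share as covariates, and leaving out libraries. Libraries of a replicate share a culture code in their descriptions within a genotype. Between the genotypes they share only a number. Results on some genes are not reported here, and these genes stay in the fits and counts. Figures were drawn in Python 3.11.15.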

Additional observations from a re-analysis of the deposited data

Results flagged for a closer look

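In 276 groups of 4 libraries (the named genes in KO and in WT, and summary measures), the highest or lowest library lay far from the other 3 in 41. Chance alone flags about 1 in 20 independent groups, but that rate does not apply here because these genes share the same libraries. Some genes were also named only if KO replicates 1 to 3, with no condition on replicate 4, lay beyond all WT libraries. That rule favours KO replicate 4 as the odd library. In 32 of the 41 the library was KO replicate 4 at 24 h. It was the lowest of its group for Col10a1 (5.25 CPM), Nrap (1.39), Ptgs2 (11.7), Spry1 (7), Cplx1 (597), Kcns2 (25.8), Scn1a (70.2), Pthlh (41.4) and Dnajb4 (61.1). It was the highest of its group for the transcription and chromatin genes Npas4 (110), Ldb2 (23.8), Rnf2 (58.5), Rorb (20.2), Lmo4 (59.9), Tle4 (150), Foxp1 (106), Tbr1 (100) and Neurod6 (137). For receptors, adhesion and guidance genes it was highest for Trhr (16.3), Grm3 (8.04), Grik3 (194), Cdh18 (20.1), Sema3f (8.01), Ntn1 (9.82), Itga6 (82.5), Drd1 (12.1) and Kitl (93.5). The remaining genes in which it was highest were Sla (43.1), Samd9l (2.16), Rasgrf2 (36.4), Slc1a2 (433) and Dcx (456), again in CPM.

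In WT replicate 1 the levels of Filip1l (6.45 CPM), Sla (112) and Hes1 (2.28) were far above the other WT libraries. WT replicate 3 was far below for Foxp2 (2.53 CPM) and Cox8a (106) and far above for Crct1 (0.3). WT replicate 4 was far above for Gabrd (7.95 CPM) and Trib3 (8.56), and KO replicate 2 for Nupr1 (3.95).

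The responses of 6 genes to 24 h of BDNF differed between the genotypes by the test of the difference itself. On the log2 scale the KO response minus the WT response was -1.79 for Atf3, -1.58 for Mylk, 0.72 for B3gat1, 0.74 for Adgrb3, 1.45 for Tox3 and 1.59 for Vcan.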

How the results depend on the processing

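The count of 2223 called genes at 24 h stayed within 1.5 times under DESeq2 (2936), RLE factors (2279), both other filters (1732 and 2459), the compared groups alone (2464), limma with culture (2610), the set as a covariate (2239) and library sizes without mitochondrial genes (2223). It moved to 11 within naming set 2 alone (10 higher, so 90.9% higher against 53.5%), 3730 with the mitochondrial share as a covariate and 5435 when KO culture 4 and KO 30 min replicate 3 were left out; leaving out 1 library gave 1216 to 3138. Without KO replicate 4 the count of 3138 moved to 4817 with only the compared groups and 283 in set 2 alone, and ran from 2037 to 2803 with a further library left out. The 6 genes with a different response became 58 with DESeq2, 12 with no filter, 167 with limma and culture, 0 in set 2 alone (294 at an unadjusted p under 0.05, edgeR), 111 when KO culture 4 and KO 30 min replicate 3 were left out, 17 with the mitochondrial share, and 0 to 11 with 1 library left out. With the culture as a block, chosen after seeing the data, they became 299, or 487 without KO 24 h replicate 4 and 835 without KO culture 4. With the replicate block across genotypes the counts were 2916, 3893 and 14; same-numbered KO and WT libraries correlated at -0.17 to 0.00 at 24 h, 0 of 4 pairs above 0.1, and 0 of the KO libraries correlated best with their own number, so the pairing is by number only. The mitochondrial share difference ran from 1.43 to 3.51 percentage points with 1 library left out. Of 133 called named genes 0 reversed in 20 alternatives; 4 were called in all of them and 77 in all but set 2 alone, which has fewer libraries. Tox3, not called at 24 h, changed sign in set 2 alone (-0.00684) and ran from -0.07 to 0.11 with 1 library left out. Where no cause is given, the cause was not tested. Depth limits genes with few reads, such as Aldh1a3 and Crct1.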

Other observations

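Pseudogenes were passed over by the naming rule but included some of the largest differences. Of 579 tested, 16 were higher and 1 was lower in KO, and of the 9 genes with a log2 fold change of at least 5, 7 were pseudogenes by their annotation. Gm10036 had 13.4, 14, 15.9 and 16.1 CPM in KO and 0.319, 0.102, 0.2 and 0.0878 CPM in WT. BC002163 had 29.8, 16.1, 13.1 and 18 CPM in KO and 0.611, 0.332, 0.526 and 0.417 CPM in WT. KO replicate 4 did not stand below the other KO libraries in either. Rpl15-ps2 had 4.75, 4.51, 0.172 and 3.22 CPM in KO and was at 0 in all 4 WT libraries. Pseudogenes are near-identical to their parent genes, and the sources used here do not give how shared reads were assigned, so these levels are uncertain.

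Ttr, the thyroxine carrier transthyretin that is abundant in choroid plexus, was called with 256, 0.121, 0.632 and 0.308 CPM in KO and 0.0266, 0.102, 0 and 0.176 CPM in WT. The difference rested on KO replicate 1.

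Of 29 heat shock chaperone genes 4 were higher and 1 was lower, against 13.3% of all genes called, with a median log2 difference of 0.19. Hspb6 (0.82), Dnajb4 (0.70), Hspa8 (0.37) and Hspd1 (0.31) were higher and Dnajb5 (-0.56) lower on the log2 scale. Of 16 striatal markers 2 rose, among them the retinoic acid receptor Rarb (0.93), and 2 fell, among them the dopamine receptor Drd1 (-0.45). Vascular and meningeal markers summed to 47.4 to 93.2 CPM in KO and 38.1 to 107 CPM in WT, overlapping ranges.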
